A study of Homo sapiens with 6 samples.

Results

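Arachidonate release and prostaglandin synthesis were described here through 10 genes, Pla2g4a, Pla2g6, Ptgs1, Ptgs2, Ptges, Ptges2, Ptges3, Hpgd, Ptger1 and Ptger4, out of 38986 gene symbols listed in the count files. The genes were taken by symbol and all 10 were found. They were chosen because Pla2g4a had counts in one group of libraries only, so the difference between the groups was part of the choice. The values of these 10 genes are therefore given as a description, with fold changes and standard errors but no p-values.

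The series holds 6 RNA-seq libraries, 3 labelled 293T with the genotype STAT6 overexpression and 3 labelled 293T Mock with the genotype WT. The submitters' design text describes both as mCherry-positive cells, and both were grown in serum-supplemented DMEM. 293T is a human embryonic kidney line, and STAT6 is a transcription factor downstream of interleukin 4 and interleukin 13. The submitters asked what STAT6 does to the expression of mitochondrial genes. Nothing in the labels says that replicates were separate cultures, so every p-value rests on a spread that could be technical.

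Neither the organism nor the cell type of the labels matched the files. The gene symbols are mouse symbols, and 0 rows carry the human symbol STAT6. All 8 pigment cell markers were present at 10 or more counts in every library, with a summed level of 17010 to 17160 CPM in the libraries labelled STAT6 and 14670 to 15020 CPM in those labelled Mock. That sum is carried by Tyrp1 and Dct, and Tyr went the other way, at 29.1 ± 0.758 CPM in the libraries labelled STAT6 and 303.0 ± 5.29 CPM in those labelled Mock. CPM is the count per 1e6 counts, scaled here to the library total adjusted by the TMM method. Of 8 markers of kidney epithelium, 6 stayed under 10 counts in every library, all but Lhx1 and Cdh1, and Pax8, Umod and Epcam had 0 counts throughout. The kidney markers summed to 5.26 to 5.62 CPM in the libraries labelled STAT6 and 0.556 to 0.738 CPM in those labelled Mock, with Lhx1 at 79, 59 and 60 counts in the libraries labelled STAT6 against 0 in each labelled Mock, and Cdh1 at 50, 41 and 50 counts in the libraries labelled STAT6 against 17, 12 and 16 in those labelled Mock. Stat6 itself stood at 33.6 ± 1.53 CPM in the libraries labelled STAT6 and at 94.5 ± 1.49 CPM in those labelled Mock (SD, n = 3 each). The libraries labelled STAT6 were thus those with less Stat6, and directions are given by label only. Library totals ranged from 19894773 to 23648304 counts in the libraries labelled STAT6 and from 22368757 to 29802693 in those labelled Mock.

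Arachidonate is a polyunsaturated fatty acid held in membrane phospholipids. Phospholipases A2 cut it free, the cyclooxygenases Ptgs1 and Ptgs2 turn it into the unstable intermediate PGH2, and terminal synthases convert PGH2 into prostaglandins such as PGE2 and PGD2. PGE2 acts on neighbouring cells through the EP receptors and is inactivated by Hpgd. In skin, prostaglandins made by keratinocytes and immune cells act on melanocytes and take part in inflammation and pigmentation.

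Of the 10 genes, 5 held enough counts to enter the fit across all genes, namely Pla2g4a, Pla2g6, Ptgs1, Ptges2 and Ptges3. The other 5, Ptgs2, Ptges, Hpgd, Ptger1 and Ptger4, fell under the filter on low counts. A filter of this kind keeps a gene that is present in one group alone. Of the 5 that entered, 4 were past the threshold of the fit (an adjusted p of 0.05) as lower in the libraries labelled STAT6 and 0 as higher, where 36.8% of all 12938 genes tested were past it as lower, 35.8% as higher and 72.6% in either direction. Pla2g4a is one of the 4 and was there by the choice of genes, so nothing is read from this count. Groups did not overlap for 4 of the 5 tested genes, Pla2g4a again included, and for 74.6% of all genes tested. Among the 5 that were not tested they did not overlap for Ptges. The share over all genes not tested was not taken, so nothing is read from this.

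The first step, release of arachidonate, had one gene on in a single group and one whose groups overlapped. Pla2g4a encodes the calcium-dependent cytosolic phospholipase A2, the enzyme best known for releasing arachidonate on stimulation. It had 0 counts in each of the 3 libraries labelled STAT6, against 74, 64 and 88 counts in the libraries labelled Mock. The Mock libraries were close together, at 2.95 ± 0.235 CPM (SD, n = 3), and the groups did not overlap. A count of 0 over the libraries labelled STAT6, with a floor of 3 counts over the group, allows a level of up to 0.0477 CPM. Against that floor Pla2g4a was at least 61.8-fold lower in the libraries labelled STAT6. Floors and intervals cover counting error only.

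Pla2g4a was chosen for this pattern and sets the cut-off of 64 counts below, so its place among such genes is a description only. Over all symbols, 81 genes had 0 counts in every library labelled STAT6 and at least 10 counts over the libraries labelled Mock, and 128 had the reverse. By summed counts in the libraries labelled Mock, Pla2g4a was number 4 of the 81. With at least 64 counts, the lowest Mock value of Pla2g4a, asked of each library, 4 genes were left, which were Pla2g4a, Osmr, Ldaf1 and Olfml1. The reverse pattern at that level was found in 1 gene, Ccl7. These genes were found after the values were seen.

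Pla2g6 encodes a calcium-independent phospholipase A2 that takes part in membrane remodelling. It had 44.5, 42.5 and 45.4 CPM in the libraries labelled STAT6, against 46.7, 42.6 and 44.8 CPM in the libraries labelled Mock. The groups overlapped, and the fitted log2 fold change was -0.02 (SE 0.05). The ratio of summed counts was 0.988 with a 95% counting interval of 0.940 to 1.04.

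The cyclooxygenases were scarce in every library. Ptgs1, the constitutive enzyme, had 5, 7 and 9 counts in the libraries labelled STAT6, against 21, 24 and 27 counts in those labelled Mock. Every library labelled STAT6 lay below every library labelled Mock, at 0.339 ± 0.114 CPM against 0.943 ± 0.0805 CPM (SD, n = 3 each) and a log2 fold change of -1.48 (SE 0.36). Ptgs2, the inducible enzyme, had 1, 1 and 0 counts in the libraries labelled STAT6, against 0, 0 and 0 in those labelled Mock. Both sums lie at or under the floor of 3 counts, so no fold is given and a difference was not detectable at this depth.

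The 3 PGE2 synthase genes had differences in both directions. Ptges encodes the inducible microsomal enzyme that is often coupled to Ptgs2. It had 3, 8 and 4 counts in the libraries labelled STAT6, against 0, 1 and 0 in those labelled Mock. The groups did not overlap, and the ratio of summed counts was 18.3 with a wide 95% counting interval of 2.82 to 770.4, since it rests on 15 counts against 1.

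Ptges2 encodes a membrane-associated PGE2 synthase. Its level was 9.46, 8.09 and 9.46 CPM in the libraries labelled STAT6, against 11.8, 10.1 and 12.7 CPM in those labelled Mock. The groups did not overlap but came close, with 9.46 CPM in the highest library labelled STAT6 and 10.1 CPM in the lowest labelled Mock. The log2 fold change was -0.36 (SE 0.10).

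Ptges3 encodes p23, a co-chaperone of HSP90 that has also been described as a cytosolic PGE2 synthase. It had 249.1, 254.0 and 239.9 CPM in the libraries labelled STAT6, against 340.5, 346.6 and 357.3 CPM in those labelled Mock. The groups stood clearly apart, with a log2 fold change of -0.49 (SE 0.03). Ptges3-ps, by its symbol a pseudogene of Ptges3, was chosen after its value was seen, and its likeness in sequence was not checked. It had 28.3 ± 1.57 CPM in the libraries labelled STAT6 and 42.3 ± 2.08 CPM in those labelled Mock. How reads were split between the gene and its pseudogene is not given in the sources used here, so the Ptges3 level is uncertain to that extent.

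Breakdown and reception of PGE2 left few counts. Hpgd, the dehydrogenase that inactivates PGE2, had 0 counts in all 6 libraries, which allows up to 0.0477 CPM in the group labelled STAT6 and 0.0391 CPM in the group labelled Mock. Ptger1 encodes EP1, a receptor coupled to calcium. It had 6, 14 and 14 counts in the libraries labelled STAT6, against 6, 9 and 7 counts in those labelled Mock. The groups overlapped through the first library labelled STAT6, and the ratio of sums was 1.89 (95% counting interval 1.07 to 3.38).

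Ptger4 encodes EP4, a receptor that raises cyclic AMP. It had 14, 3 and 5 counts in the libraries labelled STAT6, against 4, 7 and 2 counts in those labelled Mock. The groups overlapped, and the first library labelled STAT6 held 14 of the 22 counts of its group. The ratio of sums was 2.07 (95% counting interval 0.995 to 4.46).

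**Figure D1:**
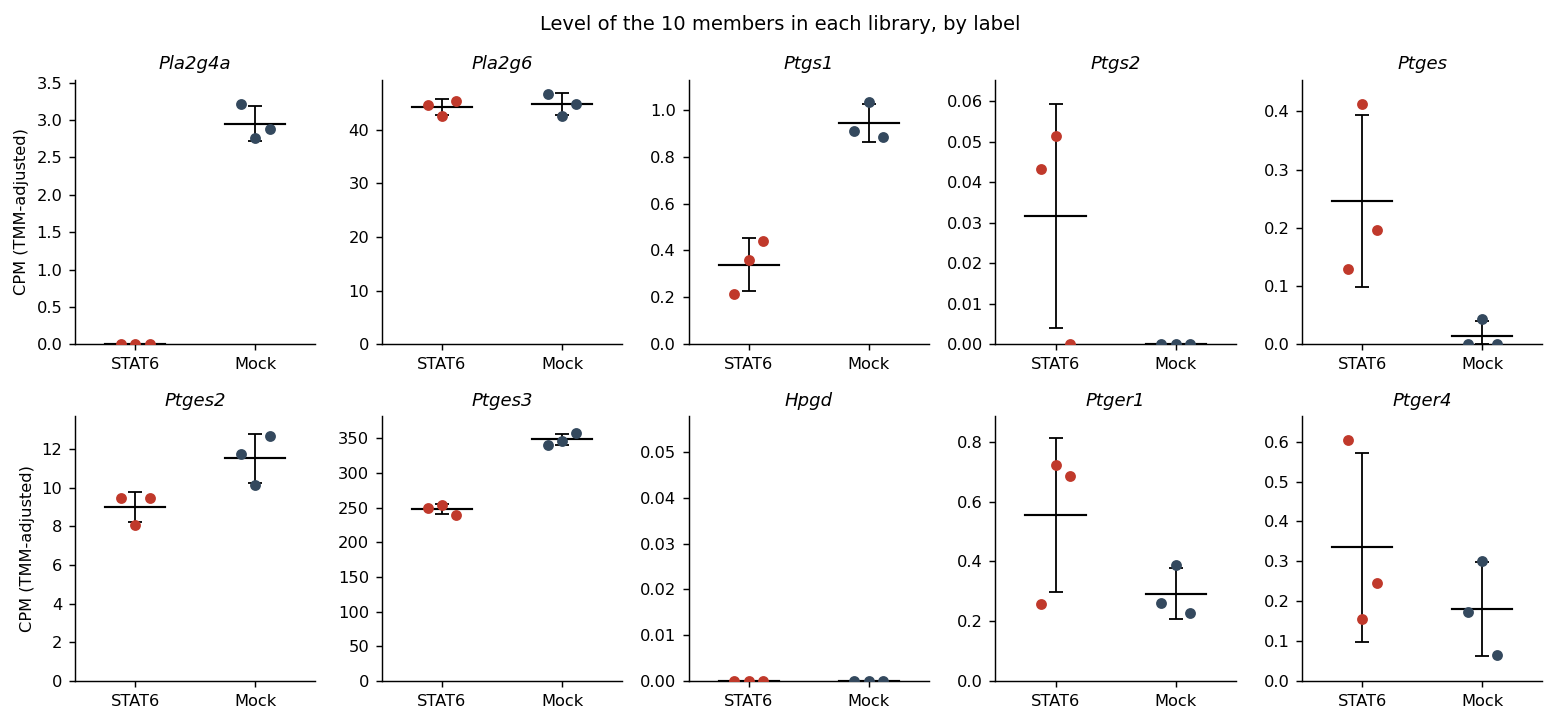
CPM, scaled to the TMM-adjusted library total, of the 10 genes in the 3 libraries labelled STAT6 and the 3 labelled Mock; points are libraries, horizontal lines are means, bars are 1 SD cut at 0, and each panel has its own axis from 0. Pla2g4a is at 0 in the libraries labelled STAT6 and between 2.76 and 3.21 CPM in those labelled Mock, Pla2g6 is level, and Hpgd is at 0 throughout.

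A wider list set these genes among 116 other genes of the pathway, grouped by role. All 116 symbols were in the files and 70 entered the fit. Of these 70, the libraries labelled STAT6 had 29 higher and 27 lower, and 14 did not pass an adjusted p of 0.05 (edgeR quasi-likelihood test, Benjamini-Hochberg over all genes tested). Over all genes tested, 35.8% were higher, 36.8% lower and 27.4% not past it. The median log2 fold change of the 70 was 0.12, against -0.003 over all genes tested. Counts by role follow, with adjusted p-values of that same fit.

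Among 23 other phospholipases A2 and related hydrolases, 12 were tested, 6 were lower and 2 higher (36.8% and 35.8% of all genes tested). The falls were the larger changes. Pla2g5, a secreted phospholipase A2, had 5, 6 and 4 counts in the libraries labelled STAT6, against 133, 124 and 164 counts in those labelled Mock. Its log2 fold change was -4.49, with an SE of 0.25 and an adjusted p of 5.65e-18. Pla2g3, another secreted enzyme, had 3, 3 and 1 counts in the libraries labelled STAT6, against 26, 36 and 38 counts in those labelled Mock (-3.49, SE 0.43, adjusted p = 6.96e-09). In both genes every library labelled STAT6 lay far below every library labelled Mock.

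The falls of Pafah1b3, a subunit that cleaves platelet-activating factor, and of Plaat3, an adipose phospholipase, were smaller. Pafah1b3 had 3.86 ± 0.536 CPM in the libraries labelled STAT6 and 8.02 ± 0.737 CPM in those labelled Mock (log2 fold change -1.04, adjusted p = 5.97e-09). Plaat3 had 7.26 ± 0.522 CPM in the libraries labelled STAT6 and 13.1 ± 0.333 CPM in those labelled Mock (-0.84, adjusted p = 3.26e-10). The remaining falls, named after their values were seen, were in the cytosolic relatives of Pla2g4a, Pla2g4b (-2.95, adjusted p = 0.0132) and Pla2g4c (-0.83, adjusted p = 0.0137). Pla2g4b was at 0, 10 and 0 counts in the libraries labelled STAT6, against 39, 23 and 35 counts in those labelled Mock, and did not pass with DESeq2 (adjusted p = 0.143) nor when Mock replicate 1 was left out (adjusted p = 0.052). Without STAT6 replicate 2 its group labelled STAT6 held 0 counts and the fitted value, which is then no bound, was -7.94; without STAT6 replicate 1 it was -2.31. Pla2g4c was also lost with DESeq2 (adjusted p = 0.0603).

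The 2 higher genes, also named after their values were seen, were Pla2g15, a lysosomal phospholipase (0.83, adjusted p = 2.86e-07), and Pafah1b2 (0.25, adjusted p = 7.05e-09). Pla2g2f, a secreted enzyme, did not enter the fit. It had 3, 2 and 5 counts in the libraries labelled STAT6, against 0 counts in every library labelled Mock, and was at least 4.07-fold higher against the floor of 3 counts over the group.

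**Figure D2:**
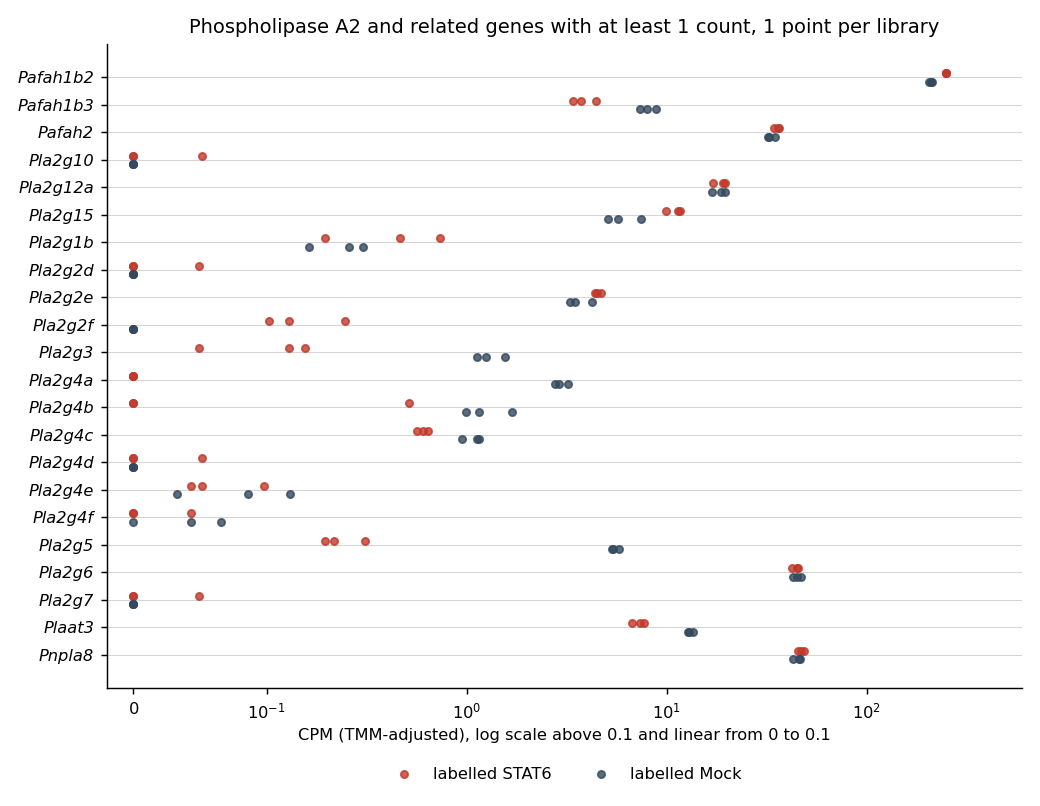
CPM of the phospholipase A2 and related genes with at least 1 count, 1 point per library, in alphabetical order, on an axis that is linear from 0 to 0.1 and logarithmic above. Pla2g4a, Pla2g5 and Pla2g3 have their points labelled STAT6 far to the left of those labelled Mock, while those of Pla2g6 coincide. CPM is not corrected for transcript length, so genes are to be compared between groups and not with each other.

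Arachidonate can also be freed from endocannabinoids. Of 8 genes of this route, all tested, 5 were higher and 2 lower (35.8% and 36.8% of all genes tested). Mgll, the lipase that splits 2-arachidonoylglycerol into arachidonate and glycerol, had 35.6, 31.1 and 36.2 CPM in the libraries labelled STAT6, against 151.8, 154.0 and 160.2 CPM in those labelled Mock. The groups were well apart, with a log2 fold change of -2.18 and an adjusted p of 7.4e-30 (SE 0.05). Dagla, which makes 2-arachidonoylglycerol, was higher (0.75, adjusted p = 1.24e-15). Faah, which hydrolyses anandamide (1.23, adjusted p = 9.12e-15), and Abhd4, a lipase on the path to anandamide (1.10, adjusted p = 5.08e-24), were higher as well. The remaining genes past the threshold were named after their values were seen. Napepld was lower (-1.14, adjusted p = 1.47e-10), and Abhd6 (0.265, adjusted p = 0.0116) and Abhd12 (0.363, adjusted p = 2.83e-10) were higher.

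Genes that make arachidonate and return it to phospholipids were mostly lower, 10 of 13 tested (36.8% of all genes), with 2 higher and a median log2 fold change of -0.43. Fads1, the desaturase that forms arachidonate, had 75.6 ± 1.25 CPM in the libraries labelled STAT6 and 170.2 ± 2.14 CPM in those labelled Mock (-1.17, SE 0.04, adjusted p = 1.43e-25). Fads2, the desaturase at the start of the route, had 101.7 ± 2.08 CPM in the libraries labelled STAT6 and 289.3 ± 8.27 CPM in those labelled Mock (-1.51, adjusted p = 1.86e-29). Acsl3, which activates long-chain fatty acids, was lower too (-1.33, adjusted p = 7.47e-28), while Lpcat2, an acyltransferase that also makes platelet-activating factor, was higher (0.75, adjusted p = 6e-19). The other higher gene, named after its value was seen, was Mboat7 (0.44, adjusted p = 5.77e-06), an acyltransferase that places arachidonate in phosphatidylinositol.

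Both listed partners of phospholipase A2 were higher (35.8% of all genes tested), a count too small to be read as a result. Anxa1, or annexin A1, is known as an inhibitor of cytosolic phospholipase A2. It had 380.3, 365.9 and 356.6 CPM in the libraries labelled STAT6, against 125.9, 119.9 and 128.1 CPM in those labelled Mock. The log2 fold change was 1.56, with an SE of 0.03 and an adjusted p of 6.65e-30. S100a10, a small protein that binds annexin A2 and has been reported to bind Pla2g4a, was higher too (log2 fold change 0.43, adjusted p = 2.06e-11).

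Of 9 genes listed as synthases of prostanoids other than PGE2, 6 were tested. Of these, 5 were higher, 0 were lower and Cbr1, named after its value was seen, did not pass (adjusted p = 0.0935). Over all genes tested 35.8% were higher. Ptgds, the lipocalin-type PGD2 synthase, had 495.9, 469.1 and 476.6 CPM in the libraries labelled STAT6, against 215.0, 208.4 and 221.7 CPM in those labelled Mock. All 3 libraries labelled STAT6 were above all 3 labelled Mock, at a log2 fold change of 1.16, an SE of 0.03 and an adjusted p of 5.84e-27. Hpgds, the haematopoietic PGD2 synthase, had 73.9 ± 3.03 CPM in the libraries labelled STAT6 and 47.8 ± 1.99 CPM in those labelled Mock (0.63, adjusted p = 7.94e-15).

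The aldo-keto reductases Akr1b3, reported to make PGF2α in mouse (0.51, adjusted p = 3.4e-14), and Akr1b8 (0.88, adjusted p = 5.04e-21) were higher as well. No prostanoid product is given here for Akr1b8, so its place among the synthases rests on the list alone. Ptgis, the prostacyclin synthase, named after its value was seen, was also higher (3.33, adjusted p = 2.4e-05). It had 14, 12 and 10 counts in the libraries labelled STAT6 against 0, 0 and 4 counts in those labelled Mock. Without Mock replicate 3 the other Mock libraries were at 0 and the fitted value, which is then no bound, was 6.66. Against this, the tested PGE2 synthase genes Ptges2 and Ptges3 had the negative values given above, and the difference between the 2 sets of synthases was not tested.

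Since Hpgds and Ptgs1 are also expressed by leukocytes and mast cells, markers of those cells were examined. The 9 leukocyte markers summed to 3.82 to 5.00 CPM in the libraries labelled STAT6 and 1.80 to 2.17 CPM in those labelled Mock, carried mainly by Cd68 and Lyz2. The defining markers Ptprc, Csf1r and Itgam had at most 2 counts in any library and Adgre1 had 0. The 6 mast cell markers summed to at most 0.0864 CPM in any library. The 5 endothelial markers summed to 0.588 to 1.03 CPM in the libraries labelled STAT6 and 0 to 0.262 CPM in those labelled Mock. Pecam1 carried most of that sum, and Cdh5 and Emcn had 0 counts in every library. The 7 fibroblast markers summed to 82.0 to 88.0 CPM in the libraries labelled STAT6 and 35.1 to 36.0 CPM in those labelled Mock. Col1a1 alone carried the higher sum, at 78.7 CPM in the libraries labelled STAT6 and 4.85 CPM in those labelled Mock (means). Col1a2 (2.14 against 13.4 CPM) and Pdgfrb (3.50 against 16.2 CPM) were lower in the libraries labelled STAT6. Pdgfra was at 1.45 against 1.15 CPM, Col3a1 had at most 3 counts in any library, and Dcn and Lum had at most 1. The part of these cells in the results was not tested, and in bulk RNA fewer cells of a type and less RNA per cell cannot be told apart.

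Transport and breakdown of prostaglandins was divided, with 3 higher and 2 lower of 5 tested genes other than Hpgd (35.8% and 36.8% of all genes tested). Slco2a1, the uptake transporter that delivers prostaglandins to breakdown, had 12, 15 and 10 counts in the libraries labelled STAT6, against 0, 0 and 2 counts in those labelled Mock. The ratio of sums was 22.6 (95% counting interval 5.82 to 193.3; adjusted p = 2.26e-06). The fitted log2 fold change was 4.25, or 6.70 without Mock replicate 3, which held both Mock counts. Abcc4, an exporter of PGE2, was lower at 52.0 ± 0.753 CPM in the libraries labelled STAT6 and 78.9 ± 0.885 CPM in those labelled Mock (log2 fold change -0.60, adjusted p = 2.61e-15). The reductases Ptgr2 (0.22, adjusted p = 0.00014) and Ptgr3 (-0.22, adjusted p = 0.0024), which reduce the product of Hpgd, differed in sign and were small. The remaining higher gene, Slco3a1 (0.15, adjusted p = 0.0152), was named after its value was seen, and its call was lost with library totals alone (adjusted p = 0.232) and without STAT6 replicate 2 (0.0589), Mock replicate 1 (0.0524) or Mock replicate 2 (0.0951).

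**Figure D3:**
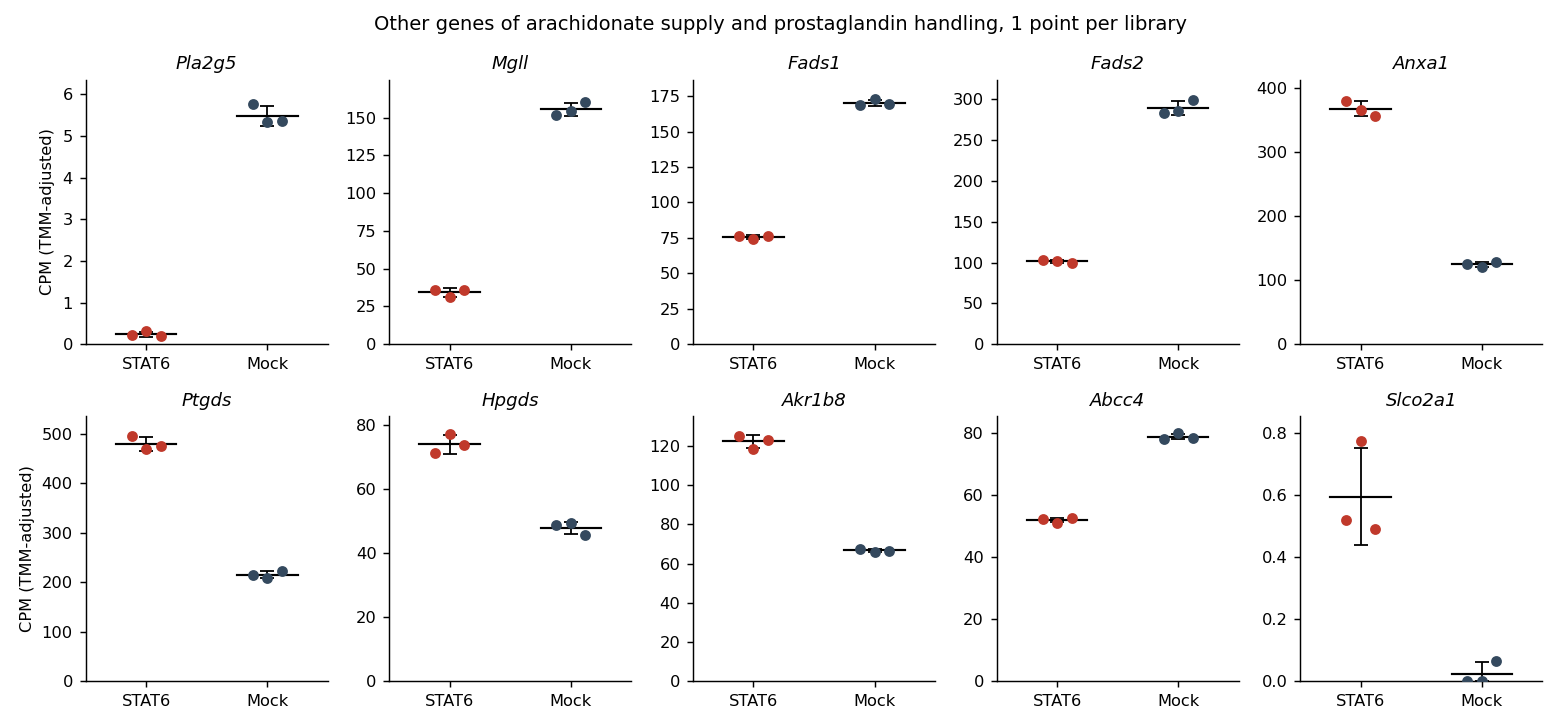
CPM, scaled to the TMM-adjusted library total, of 10 other genes of the pathway in the 3 libraries labelled STAT6 and the 3 labelled Mock; points are libraries, lines are means, bars are 1 SD cut at 0, and each panel has its own axis from 0. Pla2g5, Mgll, Fads1, Fads2 and Abcc4 are lower in the libraries labelled STAT6, and Anxa1, Ptgds, Hpgds, Akr1b8 and Slco2a1 are higher, in each case with no overlap.

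Receptors were scarce beyond Ptger1 and Ptger4. Of 7 other prostanoid receptor genes, 3 had 0 counts in all libraries, and only Ptgir, the prostacyclin receptor, was tested. It had 19, 18 and 20 counts in the libraries labelled STAT6, against 9, 14 and 13 counts in those labelled Mock (log2 fold change 0.94, SE 0.33, adjusted p = 0.0118; 0.0512 with DESeq2). None of 10 receptors for leukotrienes and other lipid mediators held enough counts to be tested.

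The other uses of arachidonate were uneven. Of 17 genes for lipoxygenases and leukotriene synthesis, 5 were tested. Dpep2, a dipeptidase of the cysteinyl leukotriene route, had 27, 15 and 13 counts in the libraries labelled STAT6, against 0, 1 and 0 counts in those labelled Mock. The ratio of sums was 67.1 (95% counting interval 11.6 to 2698; adjusted p = 1.35e-08), all libraries labelled STAT6 being above all labelled Mock. The fitted log2 fold change was 5.57, or 7.35 without Mock replicate 2, which held the single Mock count. Lta4h, which makes leukotriene B4, was lower (log2 fold change -0.44, adjusted p = 2.47e-14). Alox5ap, the activating protein of the 5-lipoxygenase and named after its values were seen, did not enter the fit, with 0, 1 and 0 counts in the libraries labelled STAT6 against 9, 11 and 13 counts in those labelled Mock. Its ratio, Mock over STAT6, was 27.05 (95% counting interval 4.53 to 1100).

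Of 8 tested cytochrome P450 and epoxide hydrolase genes, 5 were higher (35.8% of all genes tested) and 0 lower (36.8%). Ephx1, the microsomal epoxide hydrolase, had 194.8 ± 5.49 CPM in the libraries labelled STAT6 and 113.4 ± 5.22 CPM in those labelled Mock (0.78, adjusted p = 5.06e-20). The cytochrome P450 genes Cyp4v3 (1.31, adjusted p = 4.09e-15), Cyp4f17 (0.87, adjusted p = 1.72e-06) and Cyp2j6 (0.19, adjusted p = 1.45e-05) were higher too.

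Genes for proteins known to bind Ptgs2 mRNA or other AU-rich mRNAs were expressed, although Ptgs2 was close to undetected. Of 10 such genes, 3 were higher and 6 lower (35.8% and 36.8% of all genes tested), all by less than 2-fold. Zfp36l1, which promotes decay of AU-rich mRNAs, was higher (0.54, adjusted p = 1.37e-12). Khsrp, a decay factor (-0.57, adjusted p = 1.77e-15), Tial1, a translational silencer (-0.47, adjusted p = 1.5e-12), and Rbm3, a cold-induced protein (-0.33, adjusted p = 3.28e-12), were lower.

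**Figure D4:**
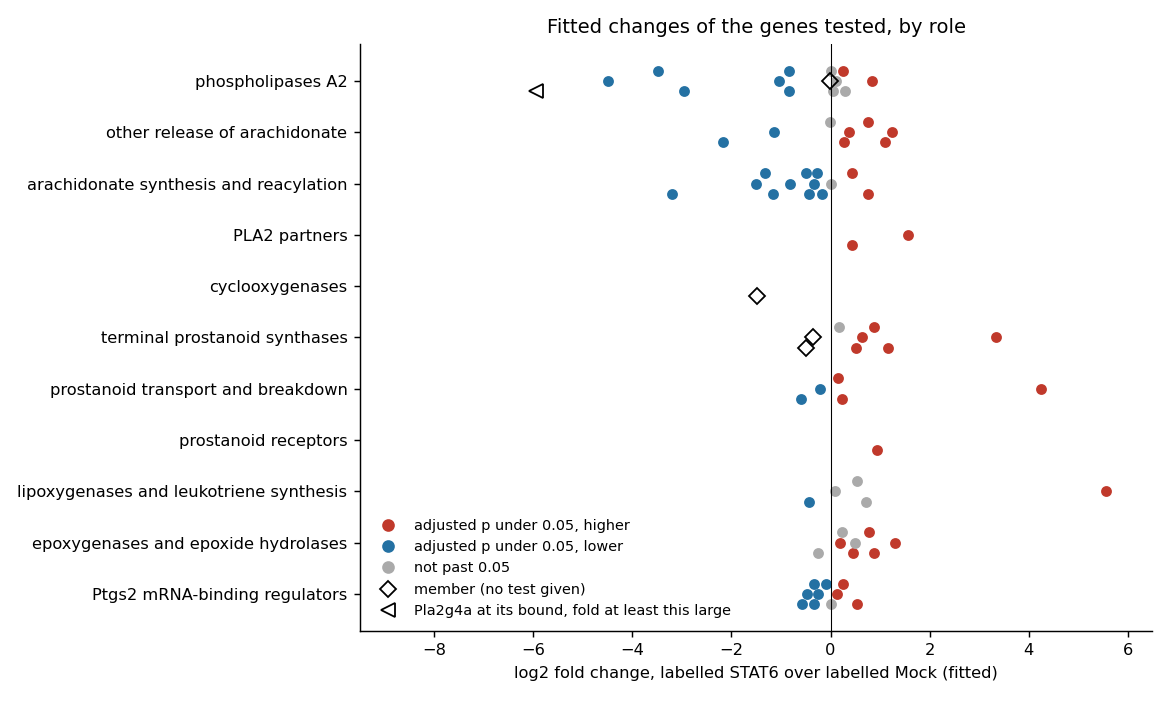
Fitted log2 fold change, libraries labelled STAT6 over libraries labelled Mock, of each tested gene of the wider list, by role; filled points are coloured by the adjusted p of 0.05, open diamonds are tested genes of the 10 described here, and the open triangle marks the lower bound of the fall of Pla2g4a (61.8-fold). The roles for synthesis and reacylation of arachidonate lie mostly left of 0. The tested genes listed as terminal synthases other than those of PGE2 lie right of 0, Cbr1 without passing.

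The genes whose profile over the 6 libraries was closest to that of Pla2g4a were sought on mean-centred log2(CPM + 1) values, by root-mean-square distance. They were Klf15 (distance 0.05), a transcription factor, Pde3a (0.05), a phosphodiesterase, Insig1 (0.05) and Mvd (0.06), genes of sterol regulation and synthesis, and Dixdc1 (0.06), a Wnt pathway gene. The pseudocount of 1 CPM shrinks the change of a low gene, so likeness on this scale does not mean an equal fold. Pde3a had 3, 2 and 1 counts in the libraries labelled STAT6, against 91, 72 and 101 counts in those labelled Mock, and Klf15 had 138, 116 and 124 counts in the libraries labelled STAT6, against 682, 643 and 820 counts in those labelled Mock.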

How the data were processed

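RNA was sequenced from 6 libraries, per the labels with a stranded kit for polyadenylated RNA. Tools named in the submitters' processing notes are STAR, Salmon, FastQC and edgeR (no versions given), with the human build GRCh37. The deposited files give whole-number counts per gene symbol, while their counting rule, strand setting and filters were not stated. Without a known strand setting, overlapping and antisense genes cannot be told apart. No mouse sequence or annotation was used, so no sequence, length or coordinate is given.

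Counts were analysed with edgeR 4.0.16 in R 4.3.3. The filter filterByExpr, given the groups, passed 12938 genes with 99.9% of all counts. The 2-sided quasi-likelihood test (robust, TMM, group as the only term) was adjusted by Benjamini-Hochberg over the full table, and the threshold was 0.05. Fold changes are libraries labelled STAT6 over libraries labelled Mock. Where a group had 0 counts, the fold is a bound against 3 counts over the group. Ratios of sums have exact conditional 95% intervals. The fit was tested on simulated counts. Pairs of libraries within a group differed by 1.44 to 2.5 times counting noise (median chi-square), so none was a copy.

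Genes named from the wider list were, per role, the 4 non-members past the threshold with the smallest adjusted p, and any with 0 counts in one group and at least 10 in the other. The 5 genes nearest to Pla2g4a were also named, passing over symbols made of Gm or LOC and a number or ending in Rik. Others are marked. The members and lists were chosen with earlier results of these data known. Alternatives were DESeq2 size factors, library totals alone, no filter, at least 1 CPM in 3 libraries, DESeq2 1.42.0, the replicate number as a block, and each library left out in turn.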

Additional observations from a re-analysis of the deposited data

How the results depend on the processing

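Of 57 named genes followed through the 12 alternatives, 52 kept their side of the threshold wherever a value was given. The exceptions are given beside Ptgir, Pla2g4b, Pla2g4c, Slco3a1 and Tpr, and the cause was not tested. Pla2g4a itself was chosen for this contrast, and many others for a small adjusted p or for likeness to it. The count of 52 was thus partly fixed in advance. Napepld, Abhd6, Abhd12, Cbr1 and Ptges3-ps were not among the 57 genes followed, so how their values depend on these settings is not given. The value of Pla2g6, not past the threshold, ranged from -0.09 with library totals alone to 0.01 without STAT6 replicate 2, and that of Tpr was -0.005 with library totals alone. No called value of a gene that was followed changed sign. The log2 fold change ranged from -1.72 to -1.22 for Ptgs1, from -0.45 to -0.28 for Ptges2 and from -0.57 to -0.47 for Ptges3. Ptgs1 had a value in 11 of the 12 alternatives, as it left the fit with the filter of at least 1 CPM in 3 libraries. Slco2a1, Dpep2, Ptgis, Ptgir, Pla2g4c and Rgs2 also left the fit under that filter. Of the 116 other genes of the wider list, 25 to 31 were called higher and 24 to 28 lower, and 8727 to 9942 of all genes were called. The labels give both groups the same replicate numbers. Deviations from the group mean correlated at 0.073, 0.103 and 0.006 between same-numbered libraries, and at -0.124 to 0.062 between the others. These values are small, and whether the libraries were paired was not tested. With the replicate number as a block 9422 genes were called, against 9399 without. Depth limits Ptgs2, Ptges, Hpgd, Ptger1 and Ptger4, with at most 56 counts over all libraries. With 3 libraries a group, no library was tested as an outlier.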

Other observations

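In the human assembly GRCh38.p14, PLA2G4A and PTGS2 are neighbouring protein-coding genes. No mouse annotation was used, so the mouse order was not checked, and these genes were named after their values were seen. Of the 6 protein-coding genes on either side of PLA2G4A in the human order, 4 held enough counts to be tested under their mouse symbols. Rgs2, a regulator of G protein signalling, had 1, 0 and 1 counts in the libraries labelled STAT6, against 22, 16 and 22 counts in those labelled Mock. Hmcn1, a matrix gene, was lower (log2 fold change -0.88, adjusted p = 8.71e-21), Odr4 was higher (0.31, adjusted p = 3.46e-07), and Tpr, a nuclear pore gene, had a log2 fold change of 0.07 (adjusted p = 0.324; 0.14 and adjusted p = 1.3e-05 without Mock replicate 2). The others, Prg4, Pdc, Ptgs2, Brinp3, Rgs18, Rgs21, Rgs1 and Rgs13, had at most 1 count in any library.

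Related genes outside the lists were named after their values were seen. Pla2r1, the receptor for secreted phospholipases A2, had 15.2 ± 0.559 CPM in the libraries labelled STAT6 and 6.57 ± 0.365 CPM in those labelled Mock (log2 fold change 1.21, adjusted p = 2.13e-14). Ptges3l, a paralogue of Ptges3, had 5.67 ± 0.215 CPM in the libraries labelled STAT6 and 2.34 ± 0.269 CPM in those labelled Mock (1.27, adjusted p = 2.78e-09). The antisense genes Ptgs2os and Ptgs2os2 had 1 and 0 counts over all 6 libraries.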
